A study of Mus musculus with 15 samples.

Results

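The genes described here are the 4 ligands of platelet-derived growth factor (PDGF) signalling, *Pdgfa*, *Pdgfb*, *Pdgfc* and *Pdgfd*, and the receptor gene *Pdgfra*. They were taken by name from the deposited count table of 54232 genes, and all 5 were found and passed the filter on low counts that 22151 genes passed. Their RNA was measured by bulk sequencing of the secondary palate, the tissue that closes the roof of the mouth, in wild-type mice at 5 stages: embryonic day 13.5 (E13.5), each of the next 3 days (E14.5 to E16.5) and, as the newborn stage, P0. There were 3 libraries at each stage, all from palatal shelves pooled from 3 embryos. Errors below are therefore between pools, and the labels give neither strain nor sex. Since the samples are whole tissue, fewer cells of a type and less RNA per cell cannot be told apart in any value below.

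PDGF ligands are secreted dimers that bring a pair of receptor tyrosine kinase chains together, and the kinases then recruit PI3 kinase, phospholipase C gamma, Src family kinases and the Ras pathway. PDGF-A and PDGF-C act mainly through PDGFRα, PDGF-B binds both PDGFRα and PDGFRβ, and PDGF-D acts mainly through PDGFRβ. In the developing face PDGFRα is made by mesenchyme derived from the cranial neural crest, PDGF-A and PDGF-C are largely epithelial signals to that mesenchyme, and mice that lack *Pdgfra* or *Pdgfc* have cleft palate. *Pdgfb* is known for its role in endothelial cells, which use it to recruit pericytes.

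The genes lie apart in the genome (build GRCm38, positions as in the count table and identical in GENCODE M21), and each position covers the whole gene with its exons and introns. *Pdgfra* (ENSMUSG00000029231.15) is on chromosome 5 from 75152292 to 75198215 and *Pdgfa* (ENSMUSG00000025856.15) on chromosome 5 from 138976014 to 138997370. *Pdgfc* (ENSMUSG00000028019.9) is on chromosome 3 from 81036416 to 81214040, *Pdgfd* (ENSMUSG00000032006.15) on chromosome 9 from 6168584 to 6378850 and *Pdgfb* (ENSMUSG00000000489.7) on chromosome 15 from 79995874 to 80014977. *Pdgfa* is overlapped on the opposite strand by *6330403L08Rik*, and the counting used strand. All 5 are protein-coding, and the lengths of their joined exons, used for levels per kb, were 10.024 kb for *Pdgfra*, 3.119 kb for *Pdgfa*, 4.161 kb for *Pdgfb*, 5.089 kb for *Pdgfc* and 3.154 kb for *Pdgfd*.

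The 250 bases before the RefSeq start sites (GRCm38.p6) are shown for *Pdgfra* and *Pdgfc*, which both fell over the series, and for *Pdgfa*, which rose. Capitals mark each CG, the dinucleotide at which mammalian DNA is methylated.
Pdgfra, chr5:75152001-75152250, plus strand: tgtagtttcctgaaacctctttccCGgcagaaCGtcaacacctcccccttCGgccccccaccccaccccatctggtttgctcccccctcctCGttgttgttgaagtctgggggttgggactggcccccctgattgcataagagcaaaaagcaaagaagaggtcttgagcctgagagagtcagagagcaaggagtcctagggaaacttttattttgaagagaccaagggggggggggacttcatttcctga
Pdgfc, chr3:81036166-81036415, plus strand: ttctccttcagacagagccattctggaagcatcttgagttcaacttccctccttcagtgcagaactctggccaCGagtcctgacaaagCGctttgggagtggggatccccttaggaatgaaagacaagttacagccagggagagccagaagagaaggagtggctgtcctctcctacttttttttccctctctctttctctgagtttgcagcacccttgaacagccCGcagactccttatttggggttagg
Pdgfa, chr5:138994945-138995194, minus strand: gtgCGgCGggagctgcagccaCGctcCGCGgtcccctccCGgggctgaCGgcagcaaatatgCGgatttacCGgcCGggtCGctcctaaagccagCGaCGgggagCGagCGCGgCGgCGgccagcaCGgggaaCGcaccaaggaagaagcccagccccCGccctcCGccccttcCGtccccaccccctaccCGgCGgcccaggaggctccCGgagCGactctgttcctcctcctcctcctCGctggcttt
The *Pdgfra* stretch held 4 CG and the *Pdgfc* stretch 3, against a median of 6 over 32851 RefSeq stretches of the same length, of which 92.1% held at least 1. The *Pdgfa* stretch held 28, and 7.61% of all stretches held at least as many. A further *Pdgfa* start site (chr5:138994282-138994531, minus strand) had 19 CG and the *Pdgfd* start site (chr9:6168236-6168485, plus strand) had 3. These counts describe letters only. Promoter activity and methylation were not analysed here.

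The 15 libraries held 21.5 M to 69.0 M counts (M stands for the mega prefix), with the shallowest at P0, and 3 counts, taken as the detection floor, equalled 0.0421 to 0.131 CPM. Libraries of E13.5 to E15.5 held 58.2 M or more and those of E16.5 and P0 52.3 M or less. Depth and stage therefore cannot be told apart between these 2 sets. CPM here are counts per M counts of a library total adjusted by TMM scaling (trimmed mean of M values), and floors cover counting error only. The lowest count of any member was 195, for *Pdgfd* in P0 replicate 3, so no member was near the floor. Markers of mesenchyme and epithelium were present in every library, while E13.5 replicate 2 and E14.5 replicate 1 stood apart from the other libraries of their stages. The summed level of 6 mesenchyme markers was 2523 CPM in the former (3352 and 4034 in its companions) and 1791 CPM in the latter (3281 and 4398). The summed level of 4 neuron markers was 1809 CPM in the former (1016 and 611) and 3087 CPM in the latter (2240 and 1420). Choroid plexus markers, from a brain tissue outside the palate, summed to 1276 and 702 CPM in E14.5 replicates 1 and 3 and to 373 and 103 CPM in P0 replicates 2 and 3. They summed to 92.6 CPM in E13.5 replicate 3 and to 2.13 to 21.8 CPM in all remaining libraries. Summed Y-linked genes were at 0.151 to 0.332 CPM in all 3 E16.5 libraries, at 0.337 to 0.457 CPM in 3 others and at 55.3 CPM or more in the remaining 9, so sex and stage cannot be told apart in contrasts with E16.5. The makeup of the tissue also moved with stage. Summed skeletal muscle markers were at 181 to 331 CPM at E13.5, 8747 to 25158 at E16.5 and 4291 to 24455 at P0. Their part in the results below was not tested.

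Over the 5 stages, 4 of the 5 PDGF genes changed, with only *Pdgfd* missing the threshold (edgeR's quasi-likelihood F test, p adjusted by Benjamini-Hochberg over all genes, threshold 0.05). Of all tested genes 59.1% changed. The adjusted p was 7.22e-06 for *Pdgfb*, 0.00646 for *Pdgfc*, 0.0101 for *Pdgfa*, 0.0130 for *Pdgfra* and 0.141 for *Pdgfd*. Without P0 replicates 2 and 3, which had the most choroid plexus transcripts of their stage, *Pdgfra* lost its call (adjusted p 0.0600), leaving 3 of 5. Between E13.5 and P0, 2 members rose (*Pdgfa* and *Pdgfb*) and 2 fell (*Pdgfc* and *Pdgfra*), in a contrast where 29.8% of all genes were higher and 26.8% lower.

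**Figure D1:**
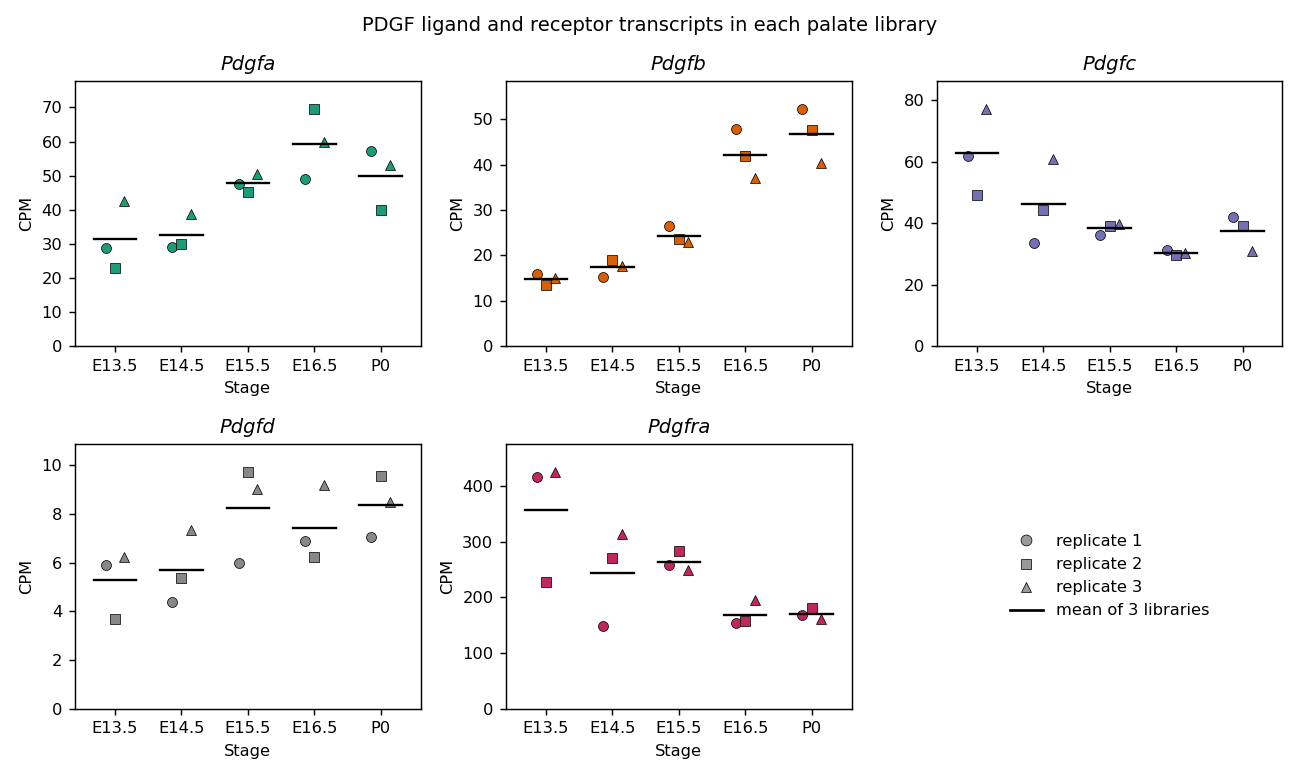
CPM (vertical axis, from 0, a separate scale for each gene) of the 5 PDGF genes at each stage (horizontal axis), with 1 point per library and a bar at the mean of 3 libraries. *Pdgfb* goes from a mean of 14.8 CPM at E13.5 to 46.8 at P0, and *Pdgfra* from 356 to 170.

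*Pdgfra*, the receptor of the mesenchyme, was highest at E13.5 and lowest at E16.5 and P0. At E13.5 its libraries were at 416, 227 and 425 CPM, at E14.5 at 148, 271 and 314 CPM, and at E15.5 at 258, 283 and 250 CPM. At E16.5 they were at 153, 157 and 195 CPM and at P0 at 168, 181 and 162 CPM. The low value of each of the first 2 stages came from E13.5 replicate 2 and E14.5 replicate 1, the libraries with fewer mesenchyme and more neuron transcripts. The part of that difference in the result was not tested.

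From E13.5 to P0 *Pdgfra* fell by 1.06 on the log2 scale (standard error 0.27, adjusted p 0.00459), to 0.479 of its first level, and every P0 library was below every E13.5 library. At E16.5 the log2 difference from E13.5 was already -1.08 (standard error 0.27, adjusted p 0.00543). Single steps did not pass. E16.5 was lower than E15.5 in all libraries, with a log2 difference of -0.65 (standard error 0.26, adjusted p 0.180). In order of mean level the stages ran from E16.5 (168 ± 22.8 CPM, SD, n = 3) and P0 (170 ± 9.82) to E14.5 (244 ± 86.1), E15.5 (264 ± 17.5) and E13.5 (356 ± 111). All neighbours in that order were tested and none passed. The contrasts of E16.5 and P0 with E13.5 passed in all 15 fits that each left out 1 library. Without P0 replicates 2 and 3 the P0 contrast had a log2 difference of -1.07 and an adjusted p of 0.0682, with 1 library left at P0. Without E14.5 replicate 1, *Pdgfra* also passed in E16.5 against E14.5 (-0.80, adjusted p 0.0183), P0 against E14.5 (-0.79, adjusted p 0.0135) and P0 against E15.5 (-0.63, adjusted p 0.0451), the last also in the fit to only its 6 libraries (-0.63, adjusted p 0.0387).

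*Pdgfc*, a ligand of PDGFRα, fell as well. Its libraries were at 61.8, 49.3 and 77.0 CPM at E13.5, 33.7, 44.3 and 60.9 CPM at E14.5, then 36.2, 39.1 and 39.9 CPM at E15.5. At E16.5 they were at 31.3, 29.7 and 30.4 CPM and at P0 at 42.1, 39.2 and 31.0 CPM. All later libraries from E15.5 on were below all 3 E13.5 libraries, and the lowest stage was E16.5.

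Against E13.5, *Pdgfc* was lower by a log2 difference of -0.71 at E15.5 (standard error 0.21, adjusted p 0.0268), -1.04 at E16.5 (standard error 0.21, adjusted p 0.00158) and -0.74 at P0 (standard error 0.21, adjusted p 0.00831). It was also lower at E16.5 than at E14.5 (-0.60, standard error 0.21, adjusted p 0.0296). No step between neighbouring stages passed, and neither did any neighbours in the order of means, which ran from E16.5 (30.5 ± 0.796 CPM, SD, n = 3) through P0 (37.4 ± 5.79), E15.5 (38.4 ± 1.91) and E14.5 (46.3 ± 13.7) to E13.5 (62.7 ± 13.9). The contrasts of E16.5 and P0 with E13.5 passed in all 15 fits that left out 1 library, and the P0 contrast lost its call without P0 replicates 2 and 3 (-0.57, adjusted p 0.159). The contrast of E15.5 with E13.5 lost its call without E13.5 replicate 1 or 3 or any E15.5 library (adjusted p 0.0648 to 0.0929), without a filter on low counts (0.0596) and with upper-quartile normalization (0.05003). That of E16.5 with E14.5 lost its call without E14.5 replicate 2 or 3, any E16.5 library, or P0 replicate 1 or 2 (adjusted p 0.0519 to 0.141), and also without both E14.5 libraries with the most choroid plexus transcripts (0.164) or both such P0 libraries (0.0520), and in 4 of 7 other settings (0.0532 to 0.0914).

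*Pdgfa*, the other main ligand of PDGFRα, moved the opposite way. Its libraries were at 28.7, 22.9 and 42.6 CPM at E13.5, 29.1, 29.9 and 38.8 CPM at E14.5 and 47.5, 45.2 and 50.5 CPM at E15.5. At E16.5 they were at 48.9, 69.4 and 59.97 CPM and at P0 at 57.2, 39.8 and 53.0 CPM. E15.5 and E16.5 libraries were all above those of E13.5 and E14.5, while 1 P0 library fell within the range of E13.5.

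The rise of *Pdgfa* was clearest at E16.5, with a log2 fold change of 0.92 over E13.5 (standard error 0.22, adjusted p 0.00484) and 0.87 over E14.5 (standard error 0.22, adjusted p 0.00743). At P0 the log2 fold change was 0.67 over E13.5 (standard error 0.22, adjusted p 0.0206) and 0.62 over E14.5 (standard error 0.22, adjusted p 0.0303). The step from E14.5 to E15.5 was 0.55 (standard error 0.22) and missed the threshold (adjusted p 0.0831), which it passed with DESeq2 (0.0455), with a filter of at least 1 CPM on average (0.0459), in the fit to only its 6 libraries (0.0306) and without E13.5 replicate 3 (0.0460). The means ran from E13.5 (31.4 ± 10.1 CPM, SD, n = 3) and E14.5 (32.6 ± 5.39) to E15.5 (47.7 ± 2.65), P0 (49.98 ± 9.07) and E16.5 (59.4 ± 10.3), and no neighbours in that order passed. Both E16.5 contrasts held in all 15 fits that left out 1 library, and that with E14.5 lost its call without E14.5 replicates 1 and 3 (1.03, adjusted p 0.0629). P0 against E13.5 lost its call without E13.5 replicate 1 (adjusted p 0.0741), E13.5 replicate 2 (0.0927) or P0 replicate 1 (0.0571), and in the fit to only its 6 libraries (0.0697). P0 against E14.5 lost it without E14.5 replicate 1 (0.107) or 2 (0.101), P0 replicate 1 (0.0712) or 3 (0.0545), or both E14.5 libraries with the most choroid plexus transcripts (0.101).

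Epithelium, a known source of both *Pdgfa* and *Pdgfc*, was followed by 6 markers. They summed to 234 to 541 CPM at E13.5, 348 to 515 a day later, 457 to 1717 at E15.5, then 1020 to 2262 at E16.5 and 972 to 3122 at P0. From E13.5 to P0 4 of the 6 rose and 0 fell, where 29.8% of all genes were higher and 26.8% lower. These markers moved in the direction of *Pdgfa* and opposite to *Pdgfc*, and their part in either result was not tested.

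*Pdgfb*, the ligand that endothelial cells use to recruit pericytes, had the largest change of the 5 genes, a 3.16-fold rise from E13.5 to P0. Its libraries were at 16.01, 13.4 and 15.004 CPM at E13.5, 15.3, 18.96 and 17.8 CPM at E14.5 and 26.5, 23.6 and 23.0 CPM at E15.5. At E16.5 they were at 47.8, 41.9 and 37.1 CPM and at P0 at 52.2, 47.7 and 40.4 CPM. All E15.5 libraries were above all E14.5 libraries, and all E16.5 libraries above all E15.5 libraries, while neighbours at both ends of the course overlapped.

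The log2 fold change of *Pdgfb* was 1.66 for P0 against E13.5 (standard error 0.14, adjusted p 4.97e-06). Between neighbouring stages it was 0.49 for E15.5 against E14.5 (standard error 0.14, adjusted p 0.0235), where 26.1% of all genes were called, and 0.79 for E16.5 against E15.5 (standard error 0.14, adjusted p 0.0284), where 1.41% were called. E14.5 against E13.5 gave 0.23 (standard error 0.14, adjusted p 0.458) and P0 against E16.5 gave 0.15 (standard error 0.14, adjusted p 0.713). In order, the means were 14.8 ± 1.32 CPM at E13.5 (SD, n = 3), 17.3 ± 1.86 a day later, 24.4 ± 1.88 at E15.5, then 42.3 ± 5.37 at E16.5 and 46.8 ± 5.95 at P0, so the first pair of neighbours and the last did not differ beyond the test. Both middle steps were near the threshold. E15.5 against E14.5 lost its call without E14.5 replicate 1 (adjusted p 0.118), E15.5 replicate 1 (0.0764), 2 (0.0592) or 3 (0.0516), or both E14.5 libraries with the most choroid plexus transcripts (0.306). E16.5 against E15.5 lost its call without E13.5 replicate 1 (0.0512), E15.5 replicate 1 (0.0537), 2 (0.154) or 3 (0.140), or E16.5 replicate 1 (0.120) or 2 (0.0605), and in the fit to only its 6 libraries (0.106). Of all genes, 0 were called in that fit and 0 without E15.5 replicate 2. Without E15.5 replicate 3, 2 were higher and 0 lower, and without E16.5 replicate 1, 1 was higher and 0 lower. The other such fits had 54 higher and 11 lower (E13.5 replicate 1), 41 and 37 (E15.5 replicate 1) and 57 and 8 (E16.5 replicate 2), against 228 and 84 as reported. The log2 fold change was 0.68 to 0.88 when 1 library was left out and 0.80 without those same E14.5 libraries. The contrasts of E15.5, E16.5 and P0 with E13.5, of E16.5 and P0 with E14.5 and of P0 with E15.5 passed in every fit run.

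Endothelial markers had a median log2 fold change of 0.44 from E13.5 to P0, against 1.66 for *Pdgfb*, a difference that was not tested. The summed level of 6 of them was 290 to 386 CPM at E13.5, 277 to 379 a day later, 396 to 467 at E15.5, then 436 to 703 at E16.5 and 429 to 649 at P0. For each 100 CPM of these markers *Pdgfb* was at 4.01 to 4.62 CPM at E13.5, 4.68 to 5.54 a day later, 5.46 to 5.80 at E15.5, then 6.80 to 9.47 at E16.5 and 7.34 to 9.41 at P0. These ratios are a description with no test, and they depend on which markers are summed. Of the 6 markers, 3 were higher at P0 than at E13.5 (*Pecam1*, log2 fold change 1.24, *Egfl7*, 1.11, and *Cdh5*, 0.62), while the receptor *Kdr* was at 0.02 (adjusted p 0.949). Of 7 pericyte and smooth muscle markers 6 rose and 1 fell, with a median log2 fold change of 1.64. In this contrast 29.8% of all genes were higher and 26.8% lower. The part of vessel content in the *Pdgfb* result was not tested. Platelets and megakaryocytes also carry PDGF, and 4 of their markers summed to 14.3 to 20.3 CPM at E13.5, 7.38 to 10.6 a day later, 17.3 to 20.8 at E15.5, then 20.3 to 38.1 at E16.5 and 33.2 to 43.6 at P0. The sums of E13.5 and P0 did not overlap. Of these markers *Pf4* rose from E13.5 to P0, from 5.30 ± 1.35 to 23.2 ± 2.32 CPM (SD, n = 3, adjusted p 0.000133), *Gp9* fell (log2 fold change -1.86, adjusted p 0.00372), and *Itga2b* and *Ppbp* did not pass. Their part in the *Pdgfb* result was not tested.

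*Pdgfd*, a ligand of PDGFRβ, was the least abundant member. Its libraries were at 5.92, 3.68 and 6.24 CPM at E13.5, 4.38, 5.36 and 7.36 CPM at E14.5 and 5.97, 9.72 and 9.04 CPM at E15.5. At E16.5 they were at 6.88, 6.22 and 9.18 CPM and at P0 at 7.05, 9.54 and 8.49 CPM. All P0 libraries were above all E13.5 libraries, as 59.1% of all genes separated in either direction, but the log2 difference of 0.66 (standard error 0.28) missed the threshold (adjusted p 0.0576). It passed with DESeq2 (adjusted p 0.0334), with a filter of at least 1 CPM on average (0.0409), with the replicate number as a block (0.0418) and without E15.5 replicate 1 (0.0497).

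Counted by contrast, 0 of the 5 members passed between E13.5 and E14.5, where 0.00903% of all genes did, and 0 between E16.5 and P0, where 0.352% did. Only *Pdgfb* passed in each of the steps from E14.5 to E15.5 (26.1% of all genes) and from E15.5 to E16.5 (1.41%). Between E13.5 and P0 4 passed (56.6% of all genes). Of the other stage pairs, 2 members passed in E15.5 against E13.5 (22.9% of all genes), 4 in E16.5 against E13.5 (48.2%), 3 in E16.5 against E14.5 (46.2%), 2 in P0 against E14.5 (56.7%) and 1 in P0 against E15.5 (22.9%). By direction, 1 member was higher (13.7% of all genes) and 1 lower (9.18%) in E15.5 against E13.5, 2 higher (25.2%) and 2 lower (23.0%) in E16.5 against E13.5, 2 higher (23.4%) and 1 lower (22.8%) in E16.5 against E14.5, 2 higher (28.9%) in P0 against E14.5 and 1 higher (12.2%) in P0 against E15.5. The libraries of both stages did not overlap for 0 members in E14.5 against E13.5 (29.2% of all genes), 2 in E15.5 against E14.5 (51.3%), 3 in E16.5 against E15.5 (31.2%), 0 in P0 against E16.5 (11.6%) and 4 in P0 against E13.5 (59.1%). In the other pairs they did not overlap for 3 in E15.5 against E13.5 (49.0%), 4 in E16.5 against E13.5 (59.8%), 3 in E16.5 against E14.5 (59.1%), 2 in P0 against E14.5 (59.5%) and 2 in P0 against E15.5 (38.6%). The contrasts share libraries. By unadjusted p under 0.05, 0 members passed in E14.5 against E13.5 and 0 in P0 against E16.5, where 3538 and 2602 of all genes did.

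**Figure D2:**
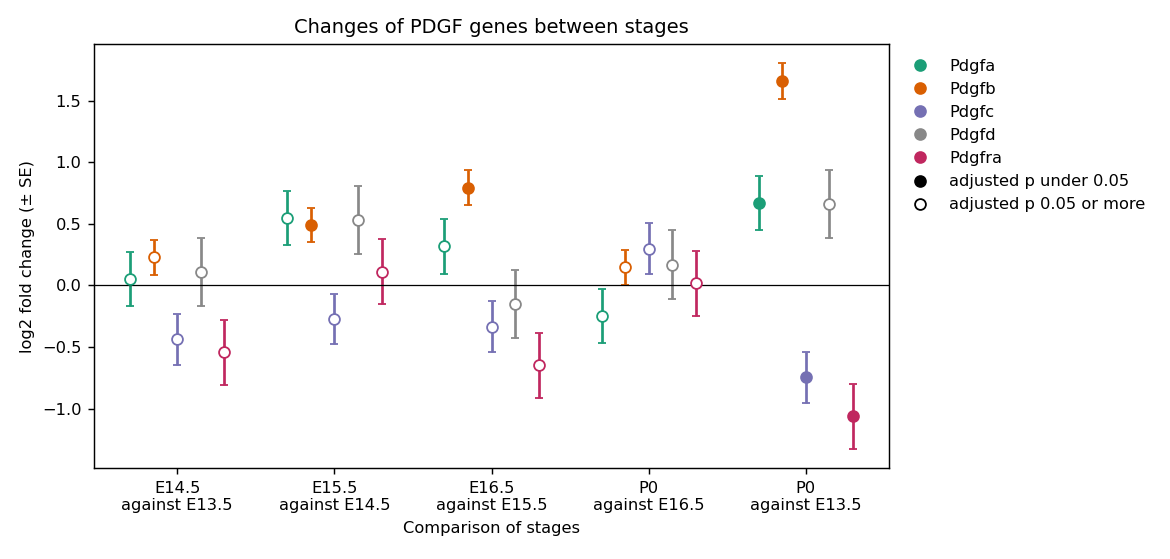
Log2 fold change with its standard error (vertical axis) of the 5 PDGF genes in the 4 steps between neighbouring stages and over the whole span (horizontal axis), with filled points past an adjusted p of 0.05. *Pdgfb* is filled in 2 of the 4 steps, and 4 genes are filled in P0 against E13.5.

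Per length, the order of the ligands changed between the stages. At E13.5 *Pdgfc* led in every library (12.3 ± 2.73 CPM per kb, SD, n = 3), followed by *Pdgfa* (10.1 ± 3.25), *Pdgfb* (3.56 ± 0.317) and *Pdgfd* (1.67 ± 0.443). In every E14.5 and E15.5 library *Pdgfa* led *Pdgfc*. In every E16.5 and P0 library *Pdgfb* had also passed *Pdgfc*, and at P0 the levels were 16.02 ± 2.91 CPM per kb for *Pdgfa*, 11.2 ± 1.43 for *Pdgfb*, 7.35 ± 1.14 for *Pdgfc* and 2.65 ± 0.398 for *Pdgfd*. As a share of the summed ligand level per kb, *Pdgfc* held 44.7 ± 0.617% at E13.5, 35.2 ± 3.57% a day later, 24.1 ± 0.787% at E15.5, 14.5% to 17.3% at E16.5 and 19.7 ± 2.45% at P0. *Pdgfb* held 13.2 ± 2.43% at E13.5 and 30.2 ± 2.72% at P0.

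**Figure D3:**
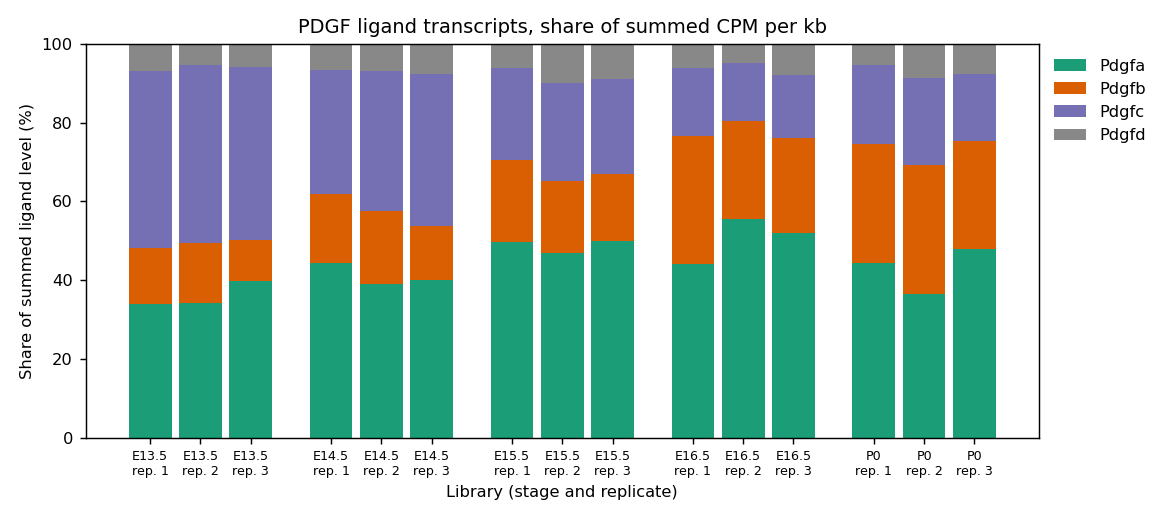
Share of the summed CPM per kb of the 4 PDGF ligands (vertical axis, percent) in each of the 15 libraries (horizontal axis). *Pdgfc* takes 44.0% to 45.2% at E13.5 and 14.5% to 17.3% at E16.5.

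Set against the summed ligands, the receptor was lower at the late stages. *Pdgfra* was at 35.5 ± 11.1 CPM per kb at E13.5 and 16.8 ± 2.28 at E16.5 (SD, n = 3), while the summed ligands were at 27.6 ± 6.50 and 37.5 ± 2.36 CPM per kb. The ratio of *Pdgfra* to the 4 ligands, per kb, was 1.06 to 1.53 at E13.5, 0.702 to 1.10 a day later, 0.769 to 0.915 at E15.5, then 0.390 to 0.524 at E16.5 and 0.406 to 0.517 at P0. It is given as a description of RNA levels, with no test. Its ligand sum includes *Pdgfb*, whose product binds both receptors, and *Pdgfd*, whose product acts mainly through PDGFRβ.

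Whether members changed differently from each other was tested on the log2 ratio of their CPM within each library, which does not depend on the scaling of the library. Of 10 pairs of members, 8 had a ratio that differed between the stages (permutation test of the between-stage variance, 100000 resamples over 15 libraries, p adjusted by Benjamini-Hochberg over the 10 pairs). The 10 ratios share 5 genes, and the matching share over pairs of other genes was not computed. Singly, 59.1% of all tested genes changed over the 5 stages. The log2 ratio of *Pdgfc* to *Pdgfa* was 1.02 ± 0.145 at E13.5 (SD, n = 3), 0.48 ± 0.23 a day later, -0.31 ± 0.09 at E15.5, then -0.95 ± 0.29 at E16.5 and -0.41 ± 0.38 at P0. All libraries of E13.5 and E14.5 were above 0 and all later ones below. Its permutation p was 1e-05, the smallest these resamples can give (adjusted 5e-05). The log2 ratio of *Pdgfc* to *Pdgfb* went from 2.06 ± 0.26 at E13.5 to -0.33 ± 0.05 at P0, with the same permutation p. That of *Pdgfra* to *Pdgfb* went from 4.53 ± 0.40 to 1.87 ± 0.16 (permutation p 9e-05, adjusted 0.000225). The ratio of *Pdgfra* to *Pdgfc* was not shown to differ between stages (2.47 ± 0.27 at E13.5 and 2.196 ± 0.19 at P0, permutation p 0.0774, adjusted 0.0860), and neither was that of *Pdgfd* to *Pdgfa* (permutation p 0.497). Over the fits that left out 1 library, 6 to 8 pairs passed.

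**Figure D4:**
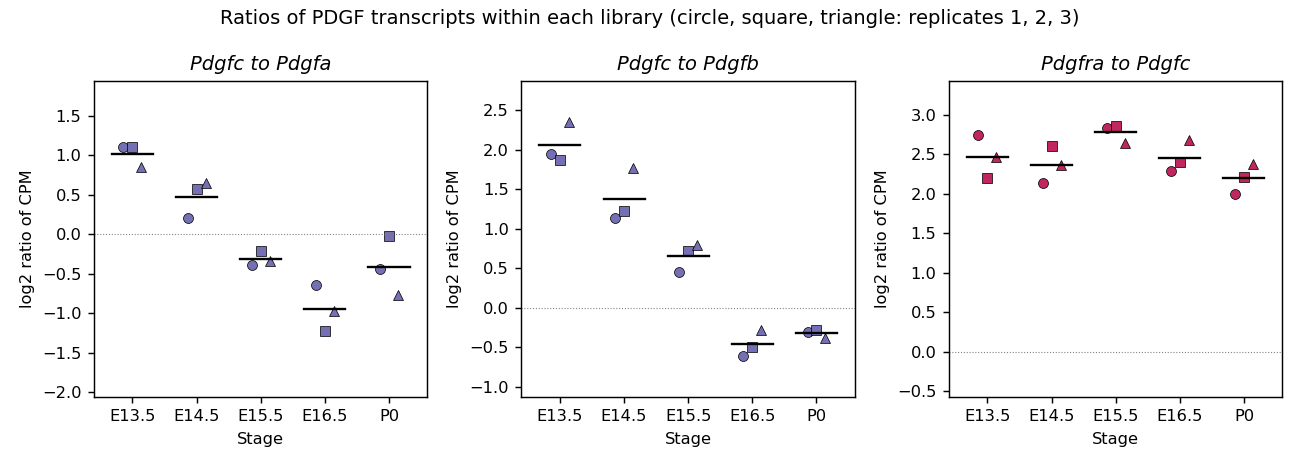
Log2 ratio of CPM within each library (vertical axis, each panel spanning 4 log2 units) for 3 pairs of PDGF genes at each stage (horizontal axis), with a bar at the mean of 3 libraries. The ratio of *Pdgfc* to *Pdgfa* crosses 0 between E14.5 and E15.5, and that of *Pdgfra* to *Pdgfc* stays between 2.00 and 2.86.

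The other receptor, *Pdgfrb*, did not pass between E13.5 and P0. It was at 191 ± 44.2 CPM at E13.5, 142 (105 to 163) a day later, 169 ± 19.2 at E15.5, then 138 ± 12.6 at E16.5 and 151 ± 27.6 at P0 (SD, n = 3), a log2 difference of -0.33 from E13.5 to P0 (standard error 0.21, adjusted p 0.185). Per length it was close to *Pdgfra* at E13.5 (34.8 ± 8.06 CPM per kb) and above it at P0 (27.6 ± 5.04). Whether the changes of both receptors differ was not tested.

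Of 8 genes for extracellular partners of PDGF signalling, 4 rose and 1 fell from E13.5 to P0 (29.8% and 26.8% of all genes), with a median log2 fold change of 0.41 against 0.03 over all genes. *Sparc*, a matrix protein that binds PDGF-B, was at 706 ± 154 CPM at E13.5 and 6610 ± 2394 CPM at P0 (SD, n = 3), a rise by a log2 fold change of 3.23 (standard error 0.31, adjusted p 9.72e-06). *Pdgfrl*, which encodes a receptor-like protein, went from 6.997 ± 2.40 up to 40.2 ± 10.6 CPM (log2 fold change 2.52, adjusted p 3.55e-05). The proteases *Plau*, which can activate PDGF-D, and *Furin*, which cleaves the PDGF-A and PDGF-B precursors, rose by log2 fold changes of 1.14 (adjusted p 0.00364) and 0.91 (adjusted p 0.000626). *Lrp1* fell by 0.55 on the log2 scale (adjusted p 0.0133). *Plat*, whose product activates PDGF-C, was at 54.7 ± 2.71 CPM at E13.5 and 51.2 ± 9.89 at P0, and fell between E14.5 and E15.5 (log2 fold change -0.72, adjusted p 0.00544). In that step 4 of the 8 rose (*Sparc*, *Pdgfrl*, *Plau* and *Furin*) and 1 fell, where 12.7% of all genes were higher and 13.4% lower.

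Of 14 genes that carry or limit the signal inside the cell, 8 fell and 1 rose from E13.5 to P0, where 26.8% of all genes were lower and 29.8% higher, and their median log2 fold change was -0.57. The ubiquitin ligase *Cbl*, which marks active receptors for breakdown, fell from 122 ± 18.7 to 46.8 ± 8.83 CPM (SD, n = 3), or by 1.38 on the log2 scale (adjusted p 0.000343). The Ras GTPase-activating protein gene *Rasa1* fell from 82.6 ± 5.25 to 33.1 ± 7.95 CPM (log2 fold change -1.32) and the Ras exchange factor *Sos1* by 1.25 on the log2 scale. The remaining falls were those of *Plcg1* (-0.88), *Crk* (-0.86), *Src* (-0.81), *Nck1* (-0.63) and *Gab1* (-0.51). *Pik3r1*, a regulatory subunit of PI3 kinase, rose (log2 fold change 0.43, adjusted p 0.0212). In the step from E14.5 to E15.5, 6 of the 14 fell and 0 rose, where 13.4% of all genes were lower and 12.7% higher. These genes serve many receptors besides those of PDGF.

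**Figure D5:**
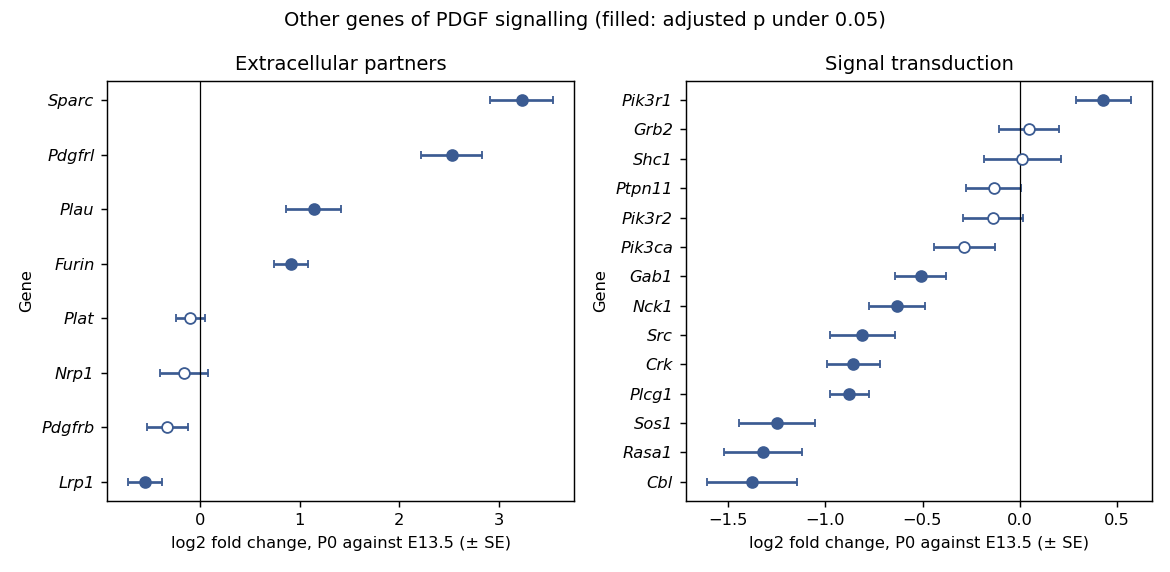
Log2 fold change with its standard error (horizontal axis) from E13.5 to P0 of 8 extracellular partners (left) and 14 signal transduction genes (right), 1 gene per line, with filled points past an adjusted p of 0.05. Filled points lie on both sides of 0 on the left (4 higher, 1 lower) and mostly below 0 on the right (1 higher, 8 lower).

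Related genes were compared by the same counts between E13.5 and P0, where 29.8% of all genes were higher and 26.8% lower. Of the class III receptor tyrosine kinases besides *Pdgfra*, *Csf1r* of macrophages rose (log2 fold change 2.42, adjusted p 4.62e-06), and *Kit*, *Flt3* and *Pdgfrb* did not pass. Of 5 VEGF ligands, which belong to the same growth factor superfamily, *Vegfd* rose (log2 fold change 1.08, adjusted p 0.0448) and the other 4 did not pass. Of *Chic2*, *Kit* and *Kdr*, which lie near *Pdgfra* on chromosome 5, 0 passed with edgeR, and 1 had an unadjusted p under 0.05. Among 6 mesenchyme markers, the transcription factor genes *Prrx1*, *Twist1* and *Osr2* fell (log2 fold changes -1.78, -1.10 and -1.12) and *Postn*, *Col1a2* and *Dlk1* rose (1.91, 3.12 and 1.53). Their part in the fall of *Pdgfra* was not tested.

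The genes whose log2 CPM over the 15 libraries was most like each member, by Pearson's r among 11855 other genes with a mean of at least 10 CPM, are given as a description. For *Pdgfra* they were *Dock1* (r = 0.973), *Prickle1* (0.946) and *Lgr5* (0.944), and for *Pdgfc* they were *Wwp2* (0.925), *Twist1* (0.923) and *Serinc2* (0.912). For *Pdgfb* they were *Vsir* (0.987), *Adamtsl4* (0.983) and *Creb3* (0.982), and for *Pdgfa* they were *Vasp* (0.950), *Rsu1* (0.939) and *Acpp* (0.936). For *Pdgfd* (11856 other genes) they included *Iqgap1* (0.934) and *Pla2g4a* (0.932). The 15 points fall into 5 stages and share their libraries.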

How the data were processed

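Bulk RNA was sequenced from pooled wild-type palates at 5 stages, 3 libraries each. The deposited values are counts of fragments per gene. Per the file headers, featureCounts 2.0.1 counted read pairs on the reverse strand against GENCODE M18, from alignments with duplicates marked and with no option to leave those out. Per the submitters' processing notes, cutadapt 3.4, HISAT2 2.2.1, Bowtie2 and SAMtools 1.12 were used, with build mm10. Their roles are not given in the sources used here. The deposited table also gives exon lengths, used for levels per kb. Symbols of 54079 genes came from GENCODE M21.

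Genes were filtered with filterByExpr (minimum count 10), scaled by TMM, and the model was fitted by edgeR 4.0.16 (R 4.3.3) over all 15 libraries with 1 coefficient per stage. All 10 stage pairs and the whole course were tested by quasi-likelihood F tests, adjusted by Benjamini-Hochberg over 22151 genes. Standard errors come from the fold change and F. Log2 CPM used a prior count of 2. DESeq2 1.42.0, other scalings and filters, fits to 6 libraries, the replicate block and leaving out each library were alternatives. Leaving out the libraries with most *Ttr* was an alternative chosen after seeing the data. The members and gene lists were chosen with earlier results of these data known. The text names the members, the listed genes, and for each member the 3 genes of highest Pearson correlation. Of these, 1 is not reported here. The procedure was tested on simulated data.

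Libraries of a stage differed by a chi-square per degree of freedom of at least 29.5, so none were copies. The labels do not say that pools came from separate litters, and p-values measure the spread between these pools. Depth sets counting error only, which was small beside that spread.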

Additional observations from a re-analysis of the deposited data

How the results depend on the processing

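Each count of members past the threshold was 4 across the 5 stages, 0 between E13.5 and E14.5, 1 from E14.5 to E15.5, 1 from E15.5 to E16.5, 0 from E16.5 to P0, 4 between E13.5 and P0, and 12 of 25 over the other stage pairs. From E14.5 to E15.5 it became 2 with DESeq2, 2 with a filter of at least 1 CPM on average and 2 in the fit to only the 6 libraries. It ranged from 0 to 2 when 1 library was left out. Of all genes, 2803 were higher and 2970 lower in this step as reported, and 3656 and 3552 with DESeq2. With that filter 2656 and 2144 of 16520 genes were, and in the fit to 6 libraries 2822 and 3747 of 20313. Without both E14.5 libraries with the most *Ttr*, which left 1 library at E14.5, *Pdgfb* was at 0.40 in this step and at 0.80 in the next. From E15.5 to E16.5 the count became 0 in the fit to only the 6 libraries, where 0 of 20218 genes were called. It ranged from 0 to 1 when 1 library was left out. Between E13.5 and P0 it became 2 without both P0 libraries with the most *Ttr*, which left 1 library assumed to vary like the other stages, and it ranged from 3 to 5 when 1 library was left out. Across the 5 stages it became 3 without those P0 libraries, where *Pdgfra* had an adjusted p of 0.0600. The other counts stayed within 1.5 times under every alternative run, among them 9 to 14 over the other stage pairs and 13 to 18 of the listed genes (16 as reported).

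Of 1200 log2 fold changes of members under 24 alternatives, 1115 kept their direction and side of the threshold, 45 lost a call, 19 gained one and 21 changed sign, all of these in contrasts where the reported size was at most 0.17. *Pdgfa* between E13.5 and E14.5 (0.05 as reported) was at -0.022 with upper-quartile normalization, at -0.092 without both E14.5 libraries with the most *Ttr*, and from -0.12 to 0.34 when 1 library was left out. *Pdgfra* between E16.5 and P0 (0.02) was at -0.026 without a filter on low counts, at -0.0295 without both P0 libraries with the most *Ttr*, and from -0.048 to 0.13 when 1 library was left out. *Pdgfd* between E15.5 and P0 (0.02) was at -0.0335 without a filter, at -0.26 without those P0 libraries, and from -0.17 to 0.15 when 1 library was left out. Without those P0 libraries *Pdgfd* was at -0.11 between E16.5 and P0 (0.17) and *Pdgfc* at 0.10 between E15.5 and P0 (-0.04). When 1 library was left out, *Pdgfd* ranged from -0.11 to 0.27 between E13.5 and E14.5, *Pdgfra* from -0.16 to 0.33 between E14.5 and E15.5, *Pdgfa* from -0.047 to 0.18 and *Pdgfc* from -0.13 to 0.079 between E15.5 and P0. The causes were not tested.

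Upper-quartile normalization took the all-gene median of log2 fold changes from 0.03 to 0.16 between E14.5 and E15.5, where *Pdgfb* then stood at 0.62 and still passed. Same-numbered libraries of different stages deviated together in 9 of 30 comparisons (r above 0.1, range -0.30 to 0.55, median -0.002). Differently numbered libraries were not compared in this way, so these values cannot decide whether the numbers pair the samples. With the replicate block the count between E13.5 and P0 was 5, over the other stage pairs 13, and the other counts of members were as reported. The ratios of member pairs gave 8 of 10 with the block as without it.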
